A study of Homo sapiens with 15 samples.

Results

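ATF4, CHOP and the transcription factors and cofactors that work with them were followed in A2058 cells, an established human melanoma line, after exposure to NP, metformin or phenformin. The members were 9 genes, ATF4, DDIT3 (which encodes CHOP), ATF3, ATF5, CEBPB, CEBPG, JDP2, NUPR1 and TRIB3, out of 26824 genes or transcripts tested, of which 16584 had a gene symbol. They were taken by name, through the RefSeq accession that the array design gives each probe, with no measured value in the rule, and 12 probes represented them. The genes were chosen with earlier results of these data known, so their counts and medians beside all features are descriptive only. Gene expression was measured on 15 one-colour arrays, 3 for each of 5 groups, from 3 independent experiments sampled at 8 h. NP at 3 µM was set against its vehicle DMSO, while metformin (MET) at 5000 µM and phenformin (PHEN) at 50 µM were set against water (W). All groups were the same cell line, for which the labels name no genetic change, and each measured level is an average over a whole culture, in which fewer expressing cells and less RNA per cell cannot be told apart. NP is neopetasin in the title of the series, and the study's methods describe petasin, a closely related butterbur compound, in the same line at this dose and time. The compound is called NP here.

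ATF4 is the transcription factor at the end of the integrated stress response. Stress kinases phosphorylate the initiation factor eIF2, most translation slows, and ATF4 mRNA is translated better, so that much of its control lies after transcription and is not seen by an array of mRNA. ATF4 belongs to the basic leucine zipper (bZIP) family, whose members bind DNA as pairs. It pairs with C/EBP proteins at composite sites upstream of amino acid and stress genes. CHOP, ATF3, ATF5 and JDP2 are bZIP factors of the same circuit, and NUPR1 and TRIB3 are regulators without a bZIP domain. In tumor cells, inhibition of mitochondrial respiration is a known trigger of this response.

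To show what the genes share upstream of their start sites, the promoter sequences of RefSeq (GRCh38.p14) were searched on both strands. The search covered the 250 bases before each annotated start and 3 patterns, TGATGNAA (the ATF4 and C/EBP composite form), TGACGTCA (the cyclic AMP response element, CRE) and TGANTCA (the AP-1 form). The table matched 8 of the 9 genes, with 19 promoters, and NUPR1 was not among them. TGATGNAA stood in 1 promoter each of ATF3, CEBPG and JDP2, and in 3.14% of all 35116 promoters. TGANTCA stood in promoters of ATF5 and DDIT3, and in 6.57% of all promoters. TGACGTCA stood in 0 of the 19, and in 1.65% of all. No promoter of these genes held more than 1 match. The 2 DDIT3 promoters begin 3 bases apart and hold the same TGACTCA, so they show 1 site and not 2. These letters describe the windows only, and no binding was measured. The sequences below are written 5′ to 3′ on the strand of the gene, with the match in capitals. The ATF3 window is chr1:212565157-212565406 on the plus strand, with its match beginning 191 bases before the start. The DDIT3 window is chr12:57520518-57520767 on the minus strand, with its match beginning 238 bases before the start.
ATF3: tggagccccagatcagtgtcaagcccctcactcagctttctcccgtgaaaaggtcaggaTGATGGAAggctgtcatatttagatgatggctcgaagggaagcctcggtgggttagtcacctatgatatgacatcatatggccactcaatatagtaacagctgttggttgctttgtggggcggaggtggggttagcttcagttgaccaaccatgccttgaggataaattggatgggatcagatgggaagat
DDIT3: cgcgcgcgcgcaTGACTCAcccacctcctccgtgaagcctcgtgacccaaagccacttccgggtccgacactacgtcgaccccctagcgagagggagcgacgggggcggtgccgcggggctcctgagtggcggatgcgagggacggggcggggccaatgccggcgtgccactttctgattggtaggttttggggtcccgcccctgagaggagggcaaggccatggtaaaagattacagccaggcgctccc
For the other 3 genes with a match, 30 bases around it are shown, so that the composite letters of CEBPG and JDP2 can be set beside those of ATF3. The CEBPG site is chr19:33374060-33374089 (plus strand), 42 bases before the start. The JDP2 site is chr14:75427995-75428024 (plus strand), 16 bases before the start. The ATF5 site is chr19:49928707-49928736 (plus strand), 188 bases before the start. CEBPG and JDP2 carried the same 8 letters, TGATGCAA, and ATF3 carried TGATGGAA.
CEBPG: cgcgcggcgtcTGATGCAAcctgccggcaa
JDP2: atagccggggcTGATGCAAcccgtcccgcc
ATF5: ggagagtgctgTGACTCAtgctggactcta

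Values are log2 signals after subtraction of the 75th percentile of the same array, so they compare arrays for 1 probe and not 1 gene with another. The arrays had 25799 to 45007 of 58201 probes well above background. The W and MET arrays of replicate 1 had the most, 45007 and 44369, and results without replicate 1 are given below. The DMSO and NP arrays lay on slides 1 and 2, and the W, MET and PHEN arrays on slides 3 and 4, with replicate 3 on its own slide in each set. Each treatment therefore shared slides with its vehicle, but DMSO against W cannot be told apart from the slides. Of 8 melanocytic markers, 7 were well above background on all 15 arrays and TYR on 13, by the probe of each gene most often above it. Of 4 epithelial markers, EPCAM, CDH1 and KRT5 were so on no array and KRT14 on all 15. Markers of other types were also above background on all 15 arrays, COL1A1 and LUM among 5 of fibroblasts, PTPRC and CD14 among 4 of immune cells, and both endothelial markers, PECAM1 and CDH5. A gene was called changed at 1.5-fold or more with an adjusted p of at most 0.05, from limma over all 26824 features with Benjamini-Hochberg adjustment. The number of arrays limits the precision.

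Of the 9 genes, 8 had higher mean signals with each of the 3 compounds than in the matching vehicle, and ATF5 alone had lower means. After NP, NUPR1, JDP2 and TRIB3 were called higher, 3 of 9 genes where 0.0373% of all features were. After PHEN, NUPR1 and JDP2 were called higher, against 0.0224% of all features. After MET, no member passed in the limma fit, and 0% of all features were called higher. At an unadjusted limma p of at most 0.05, in either direction, there were 9 of the 9 genes after NP (4.79% of all features), 7 after MET (2.53%, with ATF5 and CEBPB missing it) and 8 after PHEN (2.42%, with ATF5 missing it). By the paired test of the study's methods, unadjusted and at 1.5-fold, 6 genes were called higher after NP (0.607% of all features), 4 after MET (0.378%) and 5 after PHEN (0.157%). The median log2 fold change of the 9 genes was 1.00 for NP, 0.53 for MET and 0.62 for PHEN, whereas the median over all features was -0.016, -0.003 and -0.044, respectively.

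**Figure D1:**
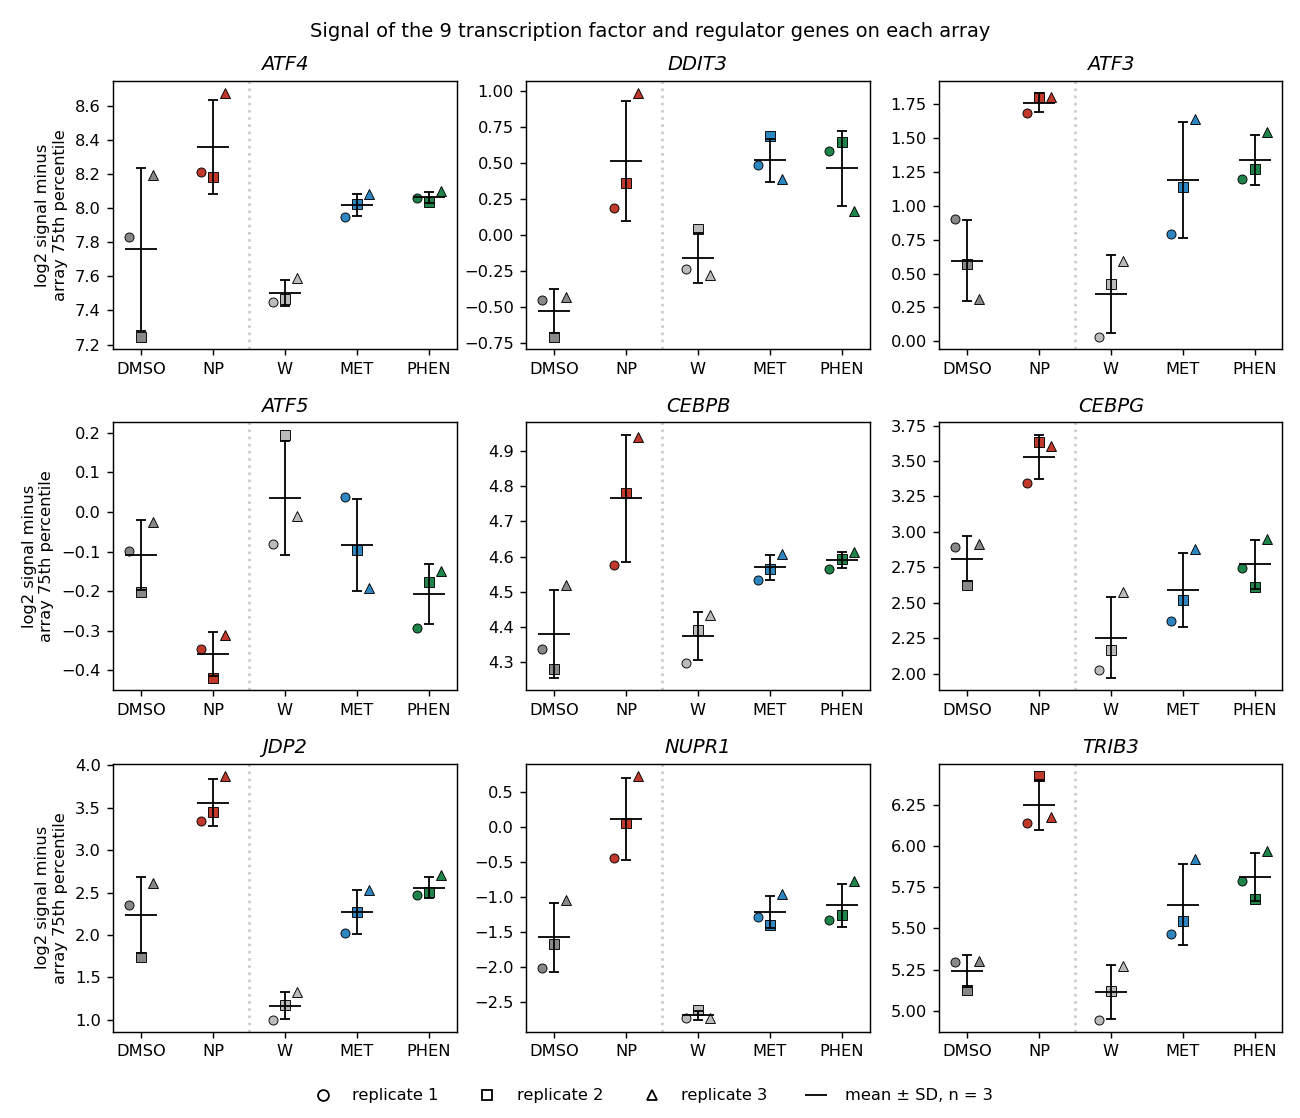
Log2 signal minus the array's 75th percentile (vertical axis) of the 9 genes on each of the 15 arrays, by group (horizontal axis). Symbols are the 3 replicates and bars are the mean ± SD (n = 3), the dotted line separates the pairs of slides, and each panel has its own axis that does not start at 0. ATF3, CEBPG, JDP2, NUPR1 and TRIB3, 5 of the 9 genes, were higher on all 3 NP arrays than on any of the other 12 arrays. The share of all features that were so was not computed. The W, MET and PHEN arrays lay on other slides, and JDP2, NUPR1 and CEBPG were already higher in DMSO than in W, by 1.07, 1.11 and 0.56.

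The arrays were also compared by whether all 3 of a treatment lay above all 3 of its vehicle. This was so for 7 of 9 genes with NP, where 3.03% of all features did so. With MET it was so for 7 of 9, against 3.18%, and with PHEN for 8 of 9, against 3.41%. ATF4 with NP and CEBPG with MET were the genes with higher means whose groups overlapped. Taken by replicate number, 8 of the 9 genes were higher in all 3 experiments with each compound. The share of all features that were so was not computed, so this count has no background beside it. Same-number arrays varied together within each set of slides, but for NP and DMSO replicates 1 and 2 did so across numbers too. DMSO and W arrays of the same number did not vary together, yet the fit over all arrays used a replicate term common to both sets. Its adjusted p and calls rest on that term. When each set of slides was fitted with its own replicate term, 5 genes were called higher after NP (0.212% of all features), 1 after MET (0.00373%) and 2 after PHEN (0.0298%).

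ATF4 itself was measured by 1 probe, well above background on all 15 arrays. Its signal was 7.83, 7.25 and 8.20 in DMSO and 8.21, 8.19 and 8.67 after NP. It was 7.45, 7.47 and 7.59 in W, 7.95, 8.03 and 8.08 after MET, and 8.06, 8.03 and 8.10 after PHEN. The DMSO arrays were spread over almost a log2 unit and the highest of them overlapped the NP arrays, whereas the W arrays were tight and lay below all MET and PHEN arrays. The log2 fold change was 0.60 ± 0.17 (SE) for NP, 0.52 ± 0.17 for MET and 0.56 ± 0.17 for PHEN. None was called, with an adjusted p in limma of 0.642, 1 and 1. With the replicate term within each set of slides the adjusted p was 0.0891 for NP, 0.37 for MET and 0.279 for PHEN. The 95% interval for NP ran from 0.23 to 0.97.

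CEBPG and CEBPB encode C/EBP proteins that can pair with ATF4. CEBPG is a short C/EBP without the usual activation domain. Its signal was 2.89, 2.63 and 2.91 in DMSO and 3.35, 3.63 and 3.60 after NP, with no overlap. In W it was 2.02, 2.17 and 2.58, against 2.37, 2.52 and 2.88 after MET and 2.75, 2.61 and 2.95 after PHEN. MET and W overlapped, although MET was higher than W in each of the 3 experiments, by 0.35, 0.35 and 0.30. The log2 fold change was 0.72 ± 0.13 (SE) for NP, with an adjusted p of 0.14 in limma, and 0.34 for MET and 0.52 for PHEN, with an adjusted p of 1 for both. CEBPG was not called after NP with the replicate term within each set of slides either (adjusted p of 0.0698), but was with slide and replicate both as terms and with slide as a random block.

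CEBPB is a C/EBP activator that also drives inflammatory and differentiation genes. Its probe was spotted 10 times on each array, and the SD between spots was at most 0.04. The signal was 4.34, 4.28 and 4.52 in DMSO and 4.58, 4.78 and 4.94 after NP. It was 4.30, 4.39 and 4.43 in W, 4.53, 4.57 and 4.61 after MET, and 4.56, 4.59 and 4.61 after PHEN. No treated group overlapped its vehicle, yet the differences were below 1.5-fold, at 0.39 for NP, 0.19 for MET and 0.22 for PHEN on the log2 scale. The upper end of the 95% interval was 0.59 for NP and 0.42 for PHEN.

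DDIT3 encodes CHOP, a C/EBP relative that is turned on late in unresolved stress and is linked to cell death. Its signal was -0.45, -0.71 and -0.43 in DMSO and 0.19, 0.36 and 0.98 after NP. It was -0.24, 0.04 and -0.28 in W, 0.48, 0.68 and 0.39 after MET, and 0.58, 0.64 and 0.16 after PHEN. Every treated array lay above every array of its vehicle, and PHEN replicate 3 was the closest to them. The log2 fold change for NP was 1.04 ± 0.22 (SE), or 2.06-fold, with an adjusted p of 0.237 in limma. It was called after NP with the replicate term within each set of slides, at an adjusted p of 0.0411. The change was 0.68 for MET and 0.62 for PHEN, with an adjusted p of 1 for both, and 0.37 and 0.383 within the set of slides.

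ATF3 is a bZIP repressor and activator induced early by many stresses. Its brightest probe, A_23_P34915, represented it. The signal was 0.90, 0.57 and 0.31 in DMSO and 1.68, 1.80 and 1.80 after NP. It was 0.03, 0.43 and 0.60 in W, 0.79, 1.14 and 1.64 after MET, and 1.196, 1.267 and 1.542 after PHEN. All treated arrays were above their vehicle, and NP replicates were the closest to each other. The log2 fold change for NP was 1.16 ± 0.22 (SE), with an adjusted p of 0.153 in limma, and 0.0291 (called) with the replicate term within each set of slides. It was 0.84 for MET and 0.98 for PHEN, with an adjusted p of 1 and 0.791.

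ATF3 was the only member with more than 1 probe, and its 4 probes differed. A_24_P33895 was dim, well above background on 1 of 3 DMSO and 1 of 3 NP arrays and on all 9 others, with log2 fold changes of 1.17, 0.68 and 0.68 for NP, MET and PHEN. A_33_P3214105 gave 0.47, 0.50 and 0.41. A_33_P3214096 gave -0.10, 0.21 and -0.23, with an SE of 0.35. The last 2 were well above background on all 15 arrays. With each probe fitted as its own feature over all arrays, no ATF3 probe was called in any comparison. On A_33_P3214096 the W and MET arrays of replicate 1, which had the most probes above background, were the highest of all at -0.92 and -0.85. With the mean of the 4 probes in place of the brightest, the ATF3 change was 0.68 for NP, 0.56 for MET and 0.46 for PHEN.

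**Figure D2:**
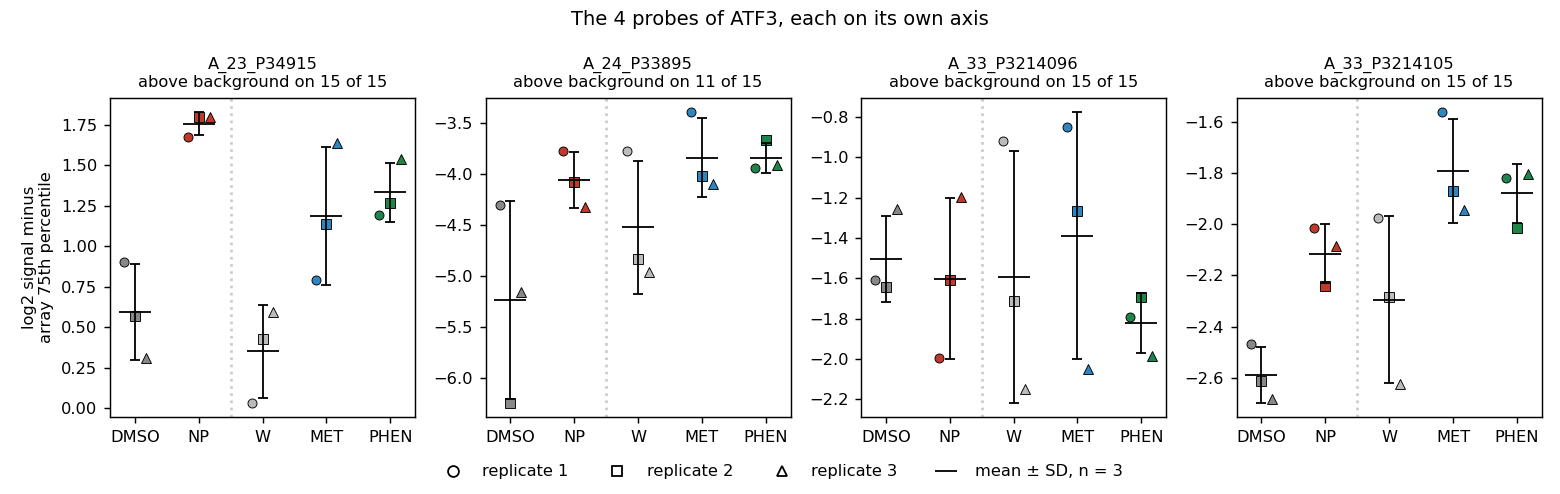
Log2 signal minus the array's 75th percentile (vertical axis, separate and not starting at 0) of the 4 ATF3 probes by group (horizontal axis). Symbols are the 3 replicates and bars are the mean ± SD (n = 3). A_33_P3214096 showed overlapping groups throughout, unlike A_23_P34915, on which every treated array was above its vehicle.

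ATF5 is a bZIP factor of the mitochondrial stress response whose mRNA, like that of ATF4, is translated better when eIF2 is phosphorylated. Its signal was -0.10, -0.20 and -0.02 in DMSO and -0.35, -0.42 and -0.31 after NP. It was -0.08, 0.20 and -0.01 in W, 0.04, -0.10 and -0.19 after MET, and -0.29, -0.18 and -0.15 after PHEN. NP lay below DMSO and PHEN below W on all arrays, while MET and W overlapped. The log2 fold changes of -0.25 (NP), -0.12 (MET) and -0.24 (PHEN) were small, with an adjusted p of 1 in limma for each. ATF5 was lower in all 3 experiments with NP, with differences of -0.25, -0.22 and -0.29, the reverse of the direction of the other 8 means.

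JDP2 is a bZIP repressor closely related to ATF3. Its probe was spotted 10 times, and the SD between spots was 0.08 in the median and 0.12 at most. The signal was 2.36, 1.74 and 2.62 in DMSO and 3.35, 3.45 and 3.87 after NP. It was 1.00, 1.17 and 1.32 in W, 2.02, 2.27 and 2.54 after MET, and 2.47, 2.51 and 2.70 after PHEN. No treated array reached down to its vehicle. JDP2 rose by 1.32 ± 0.16 (SE) on the log2 scale after NP, or 2.50-fold, with an adjusted p of 0.0271 in limma. It rose by 1.39 ± 0.16, or 2.63-fold, after PHEN, with an adjusted p of 0.0418. The change for MET was 1.11 ± 0.16, with an adjusted p of 0.196, and 0.121 within the set of slides. By group mean the order was W at 1.16, DMSO at 2.24, MET at 2.27, PHEN at 2.56 and NP at 3.56. DMSO and MET overlapped, as did MET and PHEN, while NP lay above all of them.

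NUPR1 is a small stress-induced chromatin protein that acts as a transcription cofactor. Its signal was -2.01, -1.67 and -1.05 in DMSO and -0.44, 0.05 and 0.73 after NP. It was -2.73, -2.62 and -2.72 in W, -1.29, -1.41 and -0.96 after MET, and -1.33, -1.26 and -0.77 after PHEN. The 3 W arrays lay close together, with an SD of 0.06, and below every other array. NUPR1 rose by 1.69 ± 0.20 (SE) on the log2 scale after NP, or 3.23-fold, with an adjusted p of 0.0267 in limma. It rose by 1.57 ± 0.20, or 2.97-fold, after PHEN, with an adjusted p of 0.0458. The change for MET was 1.47 ± 0.20, or 2.77-fold. That change was not called in the fit over all arrays (adjusted p of 0.196) but was with the replicate term within each set of slides (adjusted p of 0.0388). For each compound NUPR1 had the largest log2 fold change of the 9 genes on this scale, but with normexp background correction JDP2 exceeded it for all 3. Its 3 differences were 1.57, 1.72 and 1.77 for NP, 1.43, 1.21 and 1.76 for MET, and 1.40, 1.36 and 1.96 for PHEN. With normexp the NUPR1 changes were smaller, at 1.1999 for NP, 0.92 for MET and 1.02 for PHEN, and the PHEN call was lost, while those of JDP2 were 1.28, 1.06 and 1.31. The order of group means was W at -2.69, DMSO at -1.58, MET at -1.22, PHEN at -1.12 and NP at 0.11. The ranges of DMSO, MET and PHEN overlapped.

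TRIB3 is a pseudokinase that is induced by ATF4 and CHOP and binds both of them. Its signal was 5.30, 5.13 and 5.30 in DMSO and 6.14, 6.42 and 6.18 after NP. It was 4.95, 5.12 and 5.27 in W, 5.47, 5.55 and 5.92 after MET, and 5.79, 5.68 and 5.97 after PHEN. All treated arrays lay above their vehicle. TRIB3 rose by 1.00 ± 0.13 (SE) on the log2 scale after NP, or 2.01-fold, with an adjusted p of 0.0396 in limma. The change was 0.53 ± 0.13 for MET (adjusted p of 1) and 0.70 ± 0.13 for PHEN (adjusted p of 0.386). Doses differed between the compounds, so these values stand side by side and no difference between compounds was tested.

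**Figure D3:**
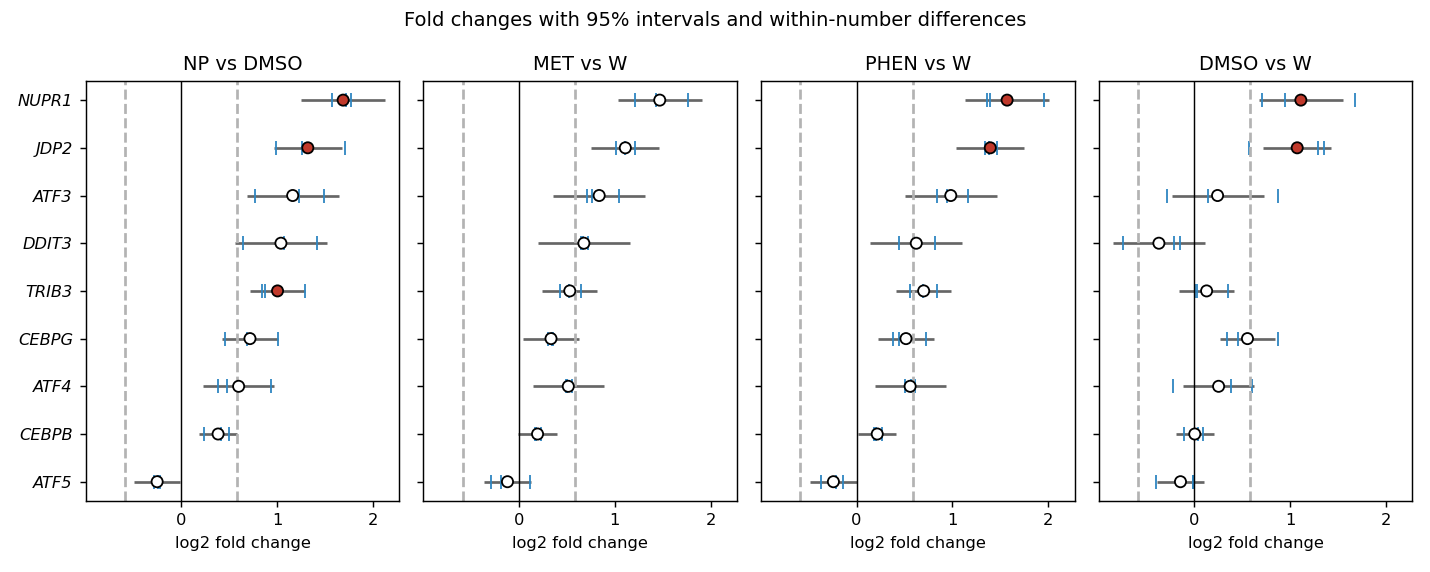
Log2 fold changes of the 9 genes (rows) in the 4 comparisons (panels, horizontal axis in log2 units). Circles are limma estimates with 95% intervals, filled where called, blue ticks are the differences of the 3 replicate numbers, and dashed lines mark 1.5-fold. On this scale NUPR1 lies farthest to the right in each treatment panel and ATF5 alone lies left of 0.

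The calls for the compounds rested on all 3 experiments. Without replicate 1, 2 or 3 of every group no member was called after NP or PHEN, and no other feature was either. The loss of calls was therefore not particular to these genes. The log2 fold change after NP still stayed between 1.65 and 1.75 for NUPR1, 1.13 and 1.49 for JDP2, and 0.86 and 1.08 for TRIB3. After PHEN it stayed between 1.38 and 1.68 for NUPR1 and between 1.36 and 1.42 for JDP2. No member was called after any compound in the fit with no replicate block, with no filter on dim probes, or with only the groups compared in the fit. Over all features, the fit with no replicate block called 3 higher after NP and none after MET or PHEN. The fits with no filter and with only the groups compared called none after any compound.

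The vehicles were compared to learn where each treatment started from. JDP2 and NUPR1 were higher in DMSO than in W, and both were called, 2 of 9 genes where 2.71% of all features were called higher and 7.98% lower. JDP2 differed by 1.07 ± 0.16 (SE) on the log2 scale, with an adjusted p of 0.00456 in limma. NUPR1 differed by 1.11 ± 0.20, with an adjusted p of 0.00746. CEBPG was higher by 0.56 ± 0.13, with an adjusted p of 0.0194, just under the 1.5-fold threshold. For these 3 genes all DMSO arrays lay above all W arrays, as did 9.15% of all features. DDIT3 lay below W on all DMSO arrays, with a log2 difference of -0.37 ± 0.22 (SE) and an adjusted p of 0.258. ATF4 differed by 0.25, ATF3 by 0.24, TRIB3 by 0.13, CEBPB by 0.01 and ATF5 by -0.14, none of them called. The ATF3 value turned to -0.17 with the mean of its 4 probes. Of the 9 genes 7 had differences above 0 (37.9% of all features), and their median was 0.24. The median over all features was -0.13 in this comparison and -0.01 after quantile normalization, under which CEBPG was called too. In all of these values vehicle and slides cannot be told apart. Without replicate 1, or without replicate 2, no member was called, and without replicate 3 CEBPG, JDP2 and NUPR1 were. Over all features, none was called without replicate 1 or 2, and 1604 were called higher without replicate 3. With slide as a random block, JDP2 and NUPR1 were still called, where 128 of all features were called higher.

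Other genes around the circuit were described by counts, from lists chosen with earlier results of these data known. Of 45 other human bZIP factors, 43 were tested, and none was called after NP, MET or PHEN by limma over all arrays. Their median log2 fold changes of 0.02, 0.01 and -0.04 were close to those of all features. XBP1, a bZIP factor of endoplasmic reticulum stress, changed by 0.65 ± 0.10 (SE) after NP, with an adjusted p of 0.0878, and was called with the replicate term within each set of slides (adjusted p of 0.0291). In DMSO against W, CREB1, which binds the CRE, was called higher, 1 of 43 where 2.71% of all features were. CEBPE, CREB3L3 and FOSL2 were called lower, 3 of 43 where 7.98% of all features were. Both counts lay near these shares. CEBPE and CREB3L3 were well above background on 0 of the 3 DMSO arrays. With the authors' table none of the 3 was called lower. All 13 genes of the eIF2 kinases, their relay and the eIF2 phosphatase were tested and none was called after a compound. PPP1R15A, which encodes GADD34, the stress-induced subunit of that phosphatase and a known CHOP target, changed by 0.01 after NP, 0.28 after MET and 0.09 after PHEN. PPP1CA, a catalytic phosphatase subunit, was called lower in DMSO than in W (-0.59), 1 of 13 genes where 7.98% of all features were. It was the only call in that list over all arrays, and fell under 1.5-fold with normexp or quantile normalization. That list still held 1 call lower with normexp and 1 call higher with quantile normalization. The 6 relatives of the cofactors, among them TRIB1, TRIB2 and the NUPR1 paralog NUPR2, had no call after a compound. CREBRF, a regulator of CREB3 proteins, was called higher in DMSO than in W (0.71), 1 of 6 genes where 2.71% of all features were.

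Genes commonly listed as ATF4 or CHOP targets moved on a larger scale, and 43 of 45 were tested. After NP, 41 had changes above 0 (45.8% of all features did) and the median was 0.51, with SESN2 (1.16), which restrains mTORC1, and the secreted stress protein GDF15 (0.93) called higher, 2 genes against 0.0373% of all features. With the replicate term within each set of slides 15 were called after NP (0.212% of all features), among them CHAC1 (1.83), which degrades glutathione, CTH (1.75) and ASNS (1.09), the asparagine synthetase. After MET, 39 were above 0 (49.4% of all features), with a median of 0.36 and no call in the limma fit over all arrays or within the set of slides. CHAC1 had the largest MET change in the list, 2.13 ± 0.29 (SE), with an adjusted p of 0.196. After PHEN, 39 were above 0 (37.5% of all features), with a median of 0.45, and ASNS (1.49), CHAC1 (2.39) and SESN2 (0.98) were called higher, 3 genes against 0.0224% of all features. In DMSO against W, where vehicle and slides cannot be told apart, 33 were above 0 (37.9% of all features). The median was 0.34, near that after MET, and -0.13 over all features. There 12 were called higher (2.71% of all features) and 1, VEGFA (-1.06), lower (7.98%). Among the 12, ASNS (1.56) and the cystine transporter SLC7A11 (1.41) had the largest differences.

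**Figure D4:**
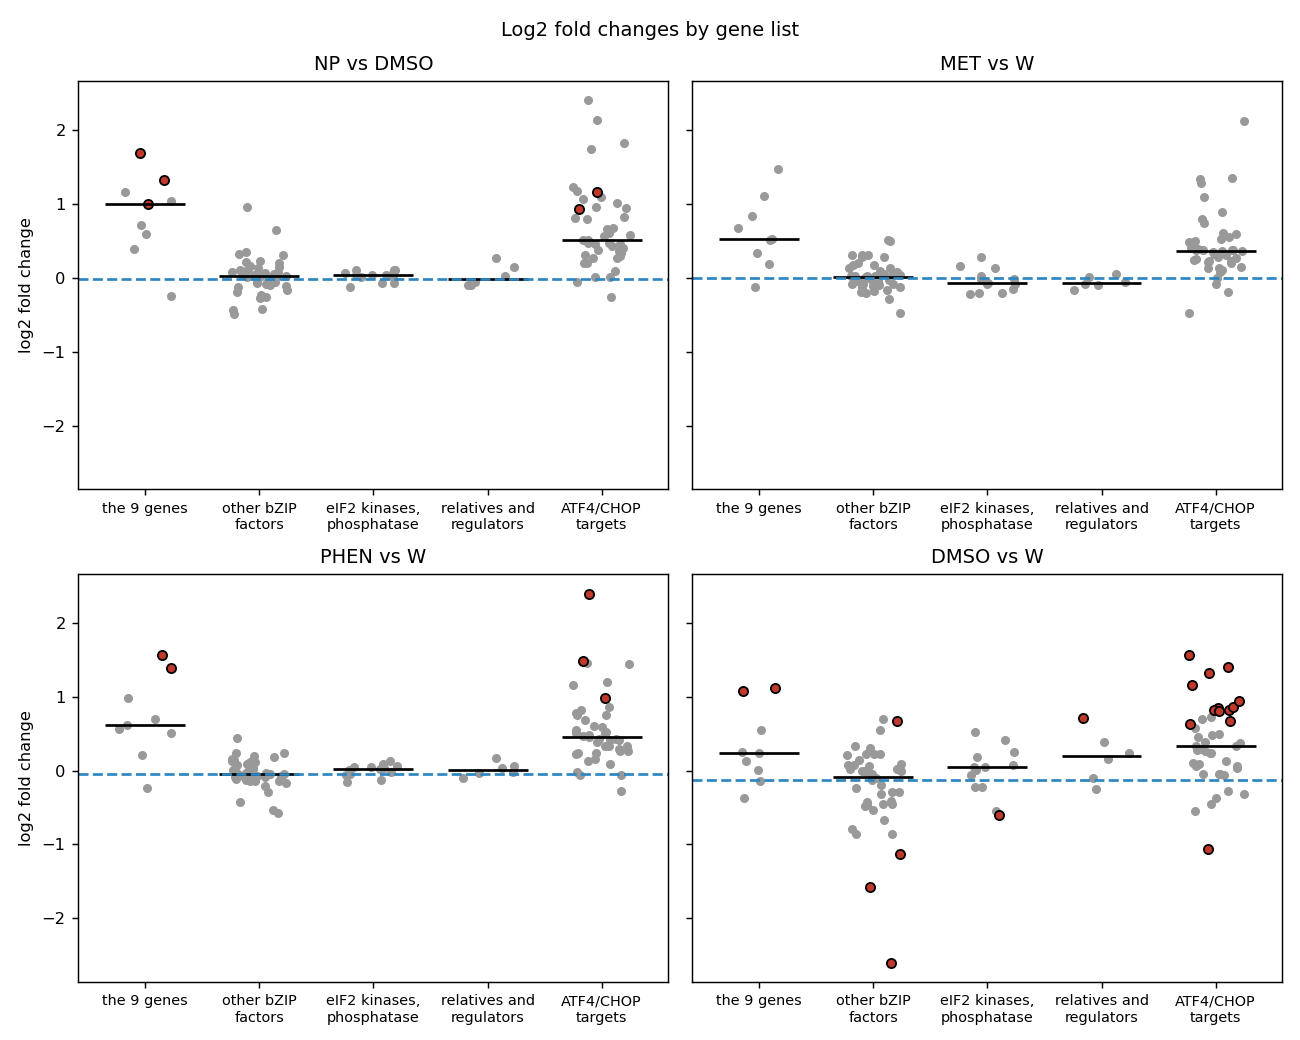
Log2 fold changes (vertical axis) of single genes in 5 lists (horizontal axis) in the 4 comparisons. Points are genes, red where called, black lines are list medians and the dashed line is the median of all features. After NP, MET and PHEN the 9 genes and the ATF4/CHOP targets had medians from 0.36 to 1.00, and the other 3 lists had medians from -0.07 to 0.04. In DMSO against W the 9 genes had a median of 0.24 and the targets 0.34, and the other 3 lists from -0.08 to 0.20.

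For each of the 9 genes, the 2 other named genes with the most similar differences were found among 13860 genes well above background on all 15 arrays. Likeness was the root-mean-square distance over the 9 differences of replicates from their own vehicle (NP, MET and PHEN, 3 each), of which MET and PHEN share the W arrays. Nearest to ATF4 were the glycyl- and seryl-tRNA synthetase genes GARS1 and SARS1, at 0.13 and 0.14 log2 units. DDIT3 was nearest to TUBE1 (0.19) and TSC22D3 (0.20), and ATF3 to STC2 (0.20) and SESN2 (0.23). CEBPG was nearest to XBP1 (0.11) and KDM7A (0.11), and CEBPB to SLC38A1 (0.07) and GRPEL2 (0.07). JDP2 was nearest to ASNS (0.25) and the glycine transporter gene SLC6A9 (0.25). NUPR1 was nearest to SLC6A9 (0.40) and ECM2 (0.49). These distances were the largest of the 9 genes, as was its own distance of 1.59 from no change. TRIB3 was nearest to the phosphoserine phosphatase gene PSPH (0.09) and to TSC22D3 (0.12). ATF5, whose own distance from no change was only 0.24, was nearest to MYLK3 (0.06) and IAPP (0.08).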

How the data were processed

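Scanner output of 15 one-colour Agilent arrays was read. The deposited intensity (processed signal) had been background-subtracted by the authors with Feature Extraction, version 9.1 per the labels and 10.7.3.1 per the file headers. The deposited log2 table of the authors holds the same arrays after 75th percentile normalization and a floor at 4. It served as an alternative. Each array's 75th percentile over all non-control spots was subtracted from log2 signals, flagged spots were left out and spots of a probe averaged. A feature was the brightest probe of a gene chosen from probes that cleared the background on each of the 3 arrays in some group and had values on at least 8 arrays. Accessions were named through RefSeq. limma 3.58.1 in R 4.3.3 fitted 5 groups with the replicate number as a block, common to both sets of slides. The fit was also run on simulated independent normal values, with planted changes larger than that of any member. These values held no replicate, slide or vehicle effect, so the run cannot test the fit under the structure of these arrays.

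Replicate numbers were used as pairs. Same-number deviations correlated at 0.32, 0.33 and 0.65 for NP and DMSO. They did so at 0.86, 0.44 and 0.80 for MET and W, and at 0.30, 0.24 and 0.40 for PHEN and W. Between replicates 1 and 2 of NP and DMSO, which shared a slide, the unlike-number values were similar, at 0.29 and 0.25. Those between replicates 1 and 2 were -0.32 and -0.23 for MET and W, and -0.05 and 0.05 for PHEN and W. For NP and DMSO, pairing by number and slide therefore cannot be told apart. Between DMSO and W the same-number values were -0.10, -0.19 and -0.02. Same-number arrays thus did not vary together across the sets of slides, although the main fit gave both sets a common replicate block. With the block within each set the SE was smaller for each of the 9 members. For NUPR1 it was 0.12 in place of 0.20, and for DDIT3 0.14 in place of 0.22. The members and lists were chosen with earlier results of these data known. Genes named were the 9 members, the 2 nearest neighbours of each, and list genes called in any comparison (those of the target list as counts and examples). Markers, and PPP1R15A and uncalled examples, were named besides. Alternatives covered background correction, scaling, probe filter, probe summary, block, slide, samples fitted, the methods' t-test and each replicate left out. Of 58201 probes, 32912 passed the filter.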

Additional observations from a re-analysis of the deposited data

How the results depend on the processing

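Of the 9 genes, 3 were called after NP, 2 after PHEN, 0 after MET and 2 in DMSO against W when all arrays were fitted. With no replicate block the counts were 0 for NP, 0 for PHEN and 0 for MET. Over all features that fit called 3 higher after NP and none after MET or PHEN. With the replicate block within each set of slides they were 5 for NP (0.212% of all features), 1 for MET (NUPR1, 0.00373%) and 2 for PHEN (0.0298%). With slide and replicate block as terms NP called 6, where 62 of all features were called higher. With slide as a random block NP also called 6 (59 of all features) and MET called 1 (4 of all features). The random block was chosen after seeing the data. NP and PHEN called 0 with no filter on dim probes, with only the groups compared, and by the methods' t-test after Benjamini-Hochberg adjustment. No feature at all was called after either compound in those settings. DMSO against W called 0 with only the groups compared and by the methods' t-test with or without adjustment. Over all features the unadjusted t-test called 385 higher and 1070 lower there, and the other settings just named called none. At the methods' own threshold, unadjusted, the t-test called 6 for NP (0.607% of all features were called higher), 4 for MET (0.378%) and 5 for PHEN (0.157%). PHEN called 1 with normexp, where 6 of all features were called higher. Leaving out each replicate gave 0 to 0 for NP and for PHEN, with or without the block within slide sets (the latter added after seeing the data), and 0 to 3 for DMSO against W. No feature at all was called after NP or PHEN in these fits. Over all features DMSO against W called 1604 higher and 3405 lower without replicate 3, and none without replicate 1 or 2. Normexp, quantile normalization and the authors' table each kept the sign of all 9 changes in all 4 comparisons. Reversals, all in DMSO against W, were -0.17 for ATF3 with the mean of its probes, and those with a replicate left out, from -0.070 (without replicate 1) to 0.51 for ATF3 and from -0.035 (without replicate 3) to 0.063 for CEBPB, which was -0.011 without replicate 1. The causes were not tested. Calls among the 43 targets after NP went from 2 to 11 with normexp, 8 with quantile normalization and 4 with the authors' table. Counts over all features also moved: NP called 10 higher and 0 lower over all arrays, but 57 and 5 with the replicate block within slide sets. DMSO against W called 728 higher and 2141 lower, 466 and 695 with normexp, 948 and 1465 with quantile normalization, and 128 and 367 with slide as a random block.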
